A study of Mus musculus with 6 samples.

Results

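Interferon-stimulated genes and RNA sensors were examined in 6 RNA-seq libraries of cultured mouse dermal fibroblasts, the collagen-producing cells of the skin. The group was given as a list of 49 genes. It holds 2 interferon receptor subunits, 4 transcription factors, 7 RNA or DNA sensors, 5 oligoadenylate synthetase or synthetase-like genes, 8 antiviral effectors, 6 genes of the ISG15 and ubiquitin system, 3 Parp genes, 6 interferon-inducible GTPases and 8 other interferon-induced genes. All 49 were found among the 41126 genes of the table, and 48 were among the 15462 genes that passed a filter on low counts. The remaining member, Mx1, was not tested.

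The study compared fibroblasts with stabilized β-catenin, the effector of canonical Wnt signaling, with control fibroblasts. Cells came from ventral skin of mice of the strain given as CD1, C57Bl6 at postnatal day 4, and each culture held the cells of 1 animal. The 3 Control cultures were labelled AdGFP; +/+ and received an adenovirus that carries green fluorescent protein. The 3 gain-of-function (GOF) cultures were labelled AdCre; Ctnnb1Δex3/+ and received an adenovirus that carries the Cre recombinase, which removes exon 3 of Ctnnb1 and so leaves a β-catenin protein that escapes degradation. Every culture was infected in medium without serum for 6 h, and RNA for sequencing was taken 72 h after infection, although the study's text also speaks of 48 h. The treatment label names AdCre at 366 to 500 MOI (infectious units per cell) for every culture, whereas the source and genotype labels name AdGFP for the Controls. The study's methods give 366 MOI for AdGFP, and they describe the same Ctnnb1 transgene in the controls, where the labels give +/+. Virus and β-catenin therefore both differed between the groups and cannot be told apart in any comparison of Control with GOF. How much adenovirus each culture held was not measured. The sample titles carry 4 animal numbers, and 2 of these animals are represented in either group. GOF replicate 2 came from the animal of Control replicate 0, and GOF replicate 0 from that of Control replicate 2. If each number stands for 1 animal, the +/+ label of Control replicates 0 and 2 conflicts with the Ctnnb1Δex3/+ label of GOF replicates 2 and 0. The study's own account of the controls holds no such conflict.

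Interferons are secreted proteins that cells release when they meet a virus. Type I interferons bind a receptor of the subunits Ifnar1 and Ifnar2, whose kinases Jak1 and Tyk2 phosphorylate STAT proteins, Stat2 among them. Stat2 and Irf9 are part of the complex ISGF3, which binds the interferon-stimulated response element (ISRE) in the promoters of interferon-stimulated genes, and many of the proteins so induced sense foreign RNA or block virus replication. The sensors Ddx58 (RIG-I) and Ifih1 (MDA5) detect viral RNA in the cytoplasm and, through Mavs, Tbk1 and Irf3, lead to the production of more interferon. Several components of the pathway, among them Stat2, Irf9 and Irf7, are themselves interferon-stimulated. Fibroblasts are a standard cell type for the study of this response.

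The libraries held between 35980831 and 42834467 fragments. Axin2, a direct target of β-catenin, had an FPKM (fragments normalized to transcript length and library size) of 0.136 to 0.177 in Control and 14.4 to 19.2 in GOF libraries, so that each library stood with its label. The summed FPKM of 10 fibroblast markers was 3169 to 4218 in Control and 2655 to 3255 in GOF libraries. Within that list Col1a2, Dcn and Fbn1 were lower in GOF (log2 fold changes of -1.18, -1.67 and -1.51). Vim was higher in every GOF library and passed the adjusted p alone (0.70), and the other 6 markers passed neither threshold, at log2 fold changes from -0.99 (Lum) to 0.57 (Dpt). Leukocytes respond strongly to interferon, and 14 of their markers summed to 14.7 to 25.0 FPKM in Control and 11.8 to 32.2 in GOF libraries. Of these, Cd3e was listed at 0 in every library, Ptprc, Adgre1 and Itgam were at or under 0.120, and 2 (Csf1r and Flt3) were higher in GOF. Leukocyte transcripts were not absent. Over the 6 libraries Lyz2 was at 4.22 to 17.3, Cd14 at 1.79 to 3.82 and Cd68 at 0.883 to 2.58, and none of these passed a threshold. Markers of keratinocytes summed to under 0.60 FPKM in every library, those of skeletal muscle to at most 1.31 and those of endothelium to at most 4.29. In the endothelial list Kdr was higher (log2 fold change 1.77) and Tek lower (-2.27) in GOF. The part of other cell types in the results was not tested.

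Expression of the interferon-stimulated genes was lower in GOF than in Control dermal fibroblasts. Of the 48 tested members, 19 were lower in GOF past both thresholds and are referred to as called. The thresholds were a difference of more than 2-fold and an adjusted p below 0.05 in edgeR's quasi-likelihood test, with Benjamini-Hochberg adjustment over all tested genes. The fraction of all tested genes called lower was 5.64%. None of the members was called higher, compared with 6.69% of all tested genes. DESeq2 called 23 members, all of them lower, beside 925 lower and 1117 higher among all 15462 tested genes. At an unadjusted p under 0.05, 1 member was higher and 33 were lower. The share of all tested genes at that p was not taken, so these counts cannot be read against a background. By the adjusted p alone, 24 members were lower and 1, Ifit2, was higher, beside 10.2% and 11.1% of all tested genes. The fitted log2 fold change, GOF over Control, was negative for 47 members and positive for 1. Its median was -1.08 over the members and -0.02 over all tested genes. The called members were 2.07-fold to 10.6-fold lower in GOF, with a median of 4.76-fold. In RNA from a whole culture, fewer cells that express a gene and less RNA per cell cannot be told apart.

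The number of called members depended on the libraries. With each library left out in turn it was 13 without Control replicate 0, 29 without Control replicate 1 and 12 without Control replicate 2. Removal of GOF replicate 0 left 5 called members, that of GOF replicate 1 left 6 and that of GOF replicate 2 also 6. All these calls were lower. Over all tested genes, 909 of 15952, 672 of 15806 and 723 of 15851 were called lower without Control replicates 0, 1 and 2. Without GOF replicates 0, 1 and 2 the numbers were 569 of 15799, 703 of 15918 and 825 of 15853. With all libraries, 872 of 15462 tested genes were called lower. The members that stayed called lower in all 6 of these fits were Stat2, Irf9, Dhx58 and Gbp3, and Ifi44 lost its call only without GOF replicate 0. All 19 called members had a negative log2 fold change in each of 17 alternative fits that tested them, these 6 included. In FPKM every GOF library was below every Control library for all 19. The sign could therefore hardly turn, and its constancy is no separate evidence. When the fit held a term for the animal (a replicate block with 1 residual degree of freedom), 30 members were called lower. The 19 were among them, and over all tested genes that fit called 912 of 15462 lower. The 11 members added were Ifih1, Ddx58, Ifi204, Rsad2, Bst2, Isg15, Trim30a, Parp12, Parp14, Igtp and Samd9l. Control replicate 1 and GOF replicate 1 were the only libraries of their animals. The fold changes of that fit therefore rested on the 2 animals with a library in either group.

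**Figure D1:**
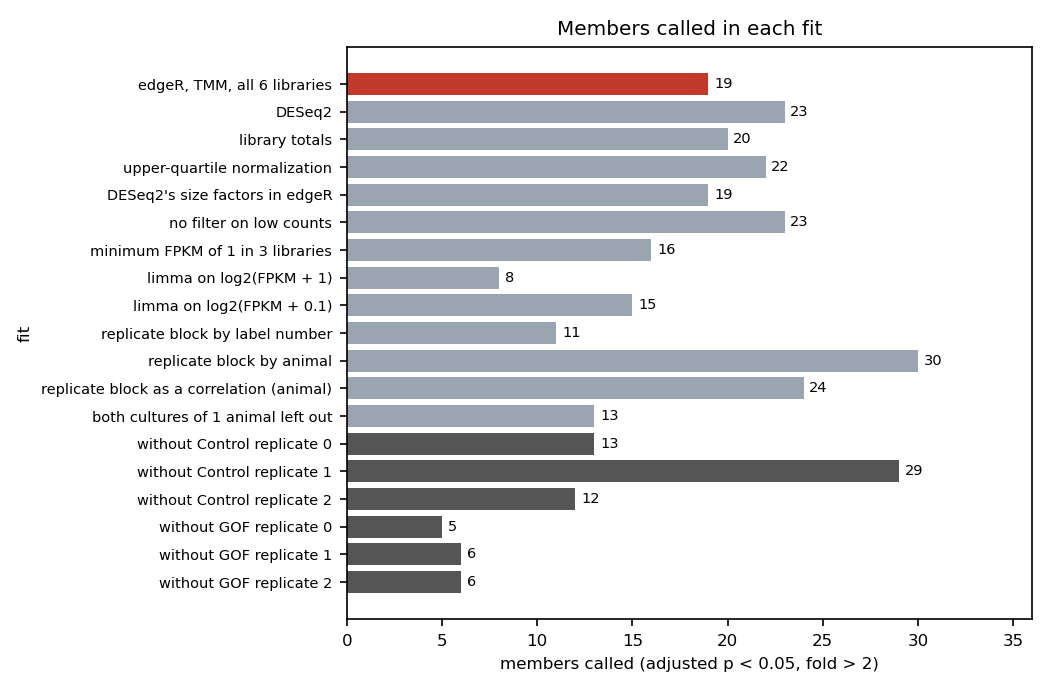
Number of members past both thresholds (horizontal axis) in each fit (vertical axis). The red bar is the fit described in the text with 19 calls, light bars change 1 choice of processing, and dark bars leave out 1 library. The counts run from 5 without GOF replicate 0 to 30 in the replicate block by animal.

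The promoters of the members were read from RefSeq (assembly GRCm38.p6), each with 250 bases before and 50 after the start site. Entries were found for 37 of the 49 members, and Dhx58, Ifi204, Ifi27, Iigp1, Mx1, Mx2, Oas2, Parp14, Parp9, Rtp4, Usp18 and Zbp1 had none. An ISRE-type motif was searched on both strands as GAAANNGAAA, where N is any base, which reads TTTCNNTTTC on the other strand. It was present in 17 of the 37 members (45.9%) and in 1079 of the 27025 genes of the promoter table (3.99%). Among the called members with an entry, 5 of 13 held it (Stat2, Ifit1, Ifit3, Gbp3 and Gbp7), as did 12 of the other 24 members. A motif of the GAS type, the element through which interferon gamma acts on promoters, was searched as TTCNNNGAA, which reads the same on both strands, and was present in 11 of the 37 members (29.7%) and in 9.55% of all genes. Neither motif contains the other, although their matches can share bases.

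The windows around the ISRE-type matches of the 5 called members are shown to place the motif beside their values, followed by Isg15 and Rsad2, which hold it too and were not called. Capitals mark the matches, each sequence reads 5′ to 3′ on the strand of its gene, and windows end before the first base of the gene.
Stat2 (chr10:128270248-128270325, + strand): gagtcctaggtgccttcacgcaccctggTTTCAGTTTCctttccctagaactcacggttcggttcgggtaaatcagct
Ifit1 (chr19:34640745-34640853, + strand): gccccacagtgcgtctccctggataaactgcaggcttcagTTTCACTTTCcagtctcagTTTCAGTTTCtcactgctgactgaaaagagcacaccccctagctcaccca
Ifit3 (chr19:34583333-34583456, + strand): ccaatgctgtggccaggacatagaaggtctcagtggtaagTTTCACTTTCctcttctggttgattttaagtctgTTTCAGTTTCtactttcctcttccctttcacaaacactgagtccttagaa
Gbp3 (chr3:142559959-142560025, + strand): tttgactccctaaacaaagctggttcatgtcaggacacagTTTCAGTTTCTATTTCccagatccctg
Gbp7 (chr3:142530243-142530332, + strand): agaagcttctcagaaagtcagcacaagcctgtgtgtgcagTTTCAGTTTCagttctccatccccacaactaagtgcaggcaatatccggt
Isg15 (chr4:156200835-156200936, - strand): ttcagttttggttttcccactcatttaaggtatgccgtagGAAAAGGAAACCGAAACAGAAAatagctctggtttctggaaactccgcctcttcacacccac
Rsad2 (chr12:26456523-26456612, - strand): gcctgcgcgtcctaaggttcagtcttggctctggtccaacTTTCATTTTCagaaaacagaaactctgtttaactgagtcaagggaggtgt
Isg15 holds 3 overlapping matches, Gbp3 holds 2 that overlap, and Ifit1 and Ifit3 hold 2 each that stand apart. The first base of the match lay 222 bases upstream of the RefSeq start site in Stat2, 104 in Ifit1, 156 in Ifit3, 45 in Gbp3, 53 in Gbp7, 78 in Isg15 and 120 in Rsad2.

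The receptor subunits did not pass the test. In all sentences that follow, values of 3 libraries are FPKM and stand in the order of replicates 0, 1 and 2. Ifnar1 was at 20.2, 23.4 and 25.2 in Control and at 23.3, 25.6 and 18.2 in GOF libraries (log2 fold change -0.06, standard error 0.17, adjusted p = 0.83). Ifnar2 was at 33.0, 28.2 and 32.7 in Control and at 30.4, 31.7 and 30.3 in GOF libraries (log2 fold change -0.14, standard error 0.11, adjusted p = 0.416). For both subunits the groups overlapped, and their levels lay within a factor of 1.41 inside each group.

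Of the 4 transcription factors, 3 were called lower in GOF. Stat2, a subunit of ISGF3, was at 12.7, 6.58 and 10.9 in Control and at 4.01, 3.35 and 2.45 in GOF libraries. Every GOF library was below every Control library, and the fitted level was 3.13-fold lower (log2 fold change -1.65, standard error 0.27, adjusted p = 0.00581). Irf9, the DNA-binding subunit of the same complex, was at 31.6, 16.2 and 21.7 in Control and at 8.16, 8.39 and 9.61 in GOF libraries. The 3 GOF libraries were close to each other and again below all Control libraries (log2 fold change -1.44, standard error 0.24, adjusted p = 0.00639). Irf7, which drives the transcription of interferon genes after a sensor has fired, was at 20.0, 4.19 and 8.39 in Control and at 2.96, 2.67 and 2.31 in GOF libraries. Its Control libraries spanned a factor of 4.76 and its GOF libraries 1.28, without overlap (log2 fold change -2.25, standard error 0.53, adjusted p = 0.0228), and the call was lost whichever GOF library was left out, with an adjusted p of up to 0.0844. Irf1, a factor induced mainly by interferon gamma, was at 10.5, 8.65 and 9.60 in Control and at 6.53, 8.16 and 7.37 in GOF libraries. Its groups did not overlap either, but the difference was smaller and did not pass the adjusted p (log2 fold change -0.41, standard error 0.13, adjusted p = 0.0544).

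**Figure D2:**
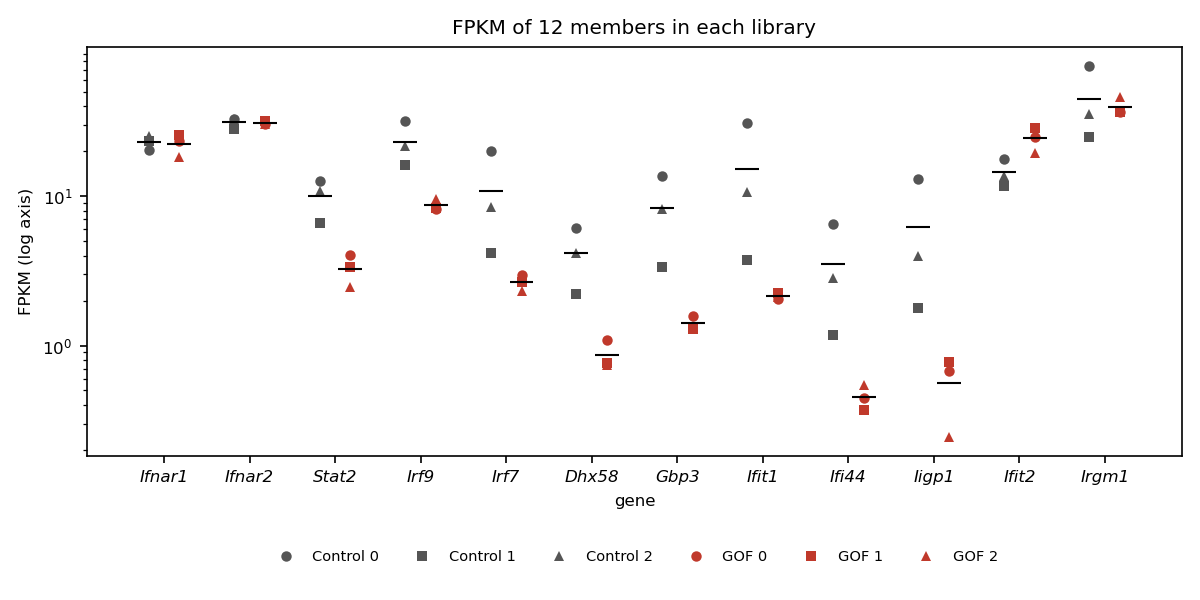
FPKM (log axis) of 12 members (horizontal axis) in the 3 Control libraries (grey) and the 3 GOF libraries (red), with a symbol for each replicate and a black line at the group mean. Ifnar1, Ifnar2 and Irgm1 overlap between groups, Ifit2 is higher in GOF, and the GOF points of the other 8 genes all lie below their Control points.

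All 3 RIG-I-like receptors were lower in GOF by the adjusted p, and 1 of them was called. Dhx58 (LGP2), which regulates the other RIG-I-like receptors and lacks their signaling domain, was at 6.13, 2.22 and 4.18 in Control and at 1.08, 0.765 and 0.740 in GOF libraries. The highest GOF library was below the lowest Control library, and the fitted level was 5.67-fold lower (log2 fold change -2.50, standard error 0.37, adjusted p = 0.0037). Ddx58, the sensor of RNA with triphosphate ends, was at 28.2, 19.6 and 28.5 in Control and at 14.5, 13.1 and 14.3 in GOF libraries. It was lower in each GOF library by less than the threshold of 2-fold (log2 fold change -0.86, standard error 0.16, adjusted p = 0.0092). Ifih1, the sensor of long double-stranded RNA, was at 8.40, 4.28 and 5.24 in Control and at 3.27, 3.34 and 3.78 in GOF libraries. The gap between the lowest Control and the highest GOF library was small (log2 fold change -0.86, standard error 0.24, adjusted p = 0.0411), and the adjusted p rose to as much as 0.136 with a library left out. The other 4 sensors did not pass. Eif2ak2, the kinase PKR that halts translation on double-stranded RNA, differed by -0.46 on the log2 scale (adjusted p = 0.0825), and Ifi204, a DNA sensor, by -0.86 (adjusted p = 0.0828). For Zbp1, a sensor of Z-form nucleic acid, it was -1.12 (adjusted p = 0.217), and for Adar, which edits adenosines in double-stranded RNA, it was -0.24 (adjusted p = 0.375).

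Of the oligoadenylate synthetase and synthetase-like genes, all on chromosome 5, 1 of 5 was called. Oligoadenylates made by the active synthetases switch on the nuclease RNase L, whereas Oasl1 lacks that activity. Oasl2 was at 6.58, 3.05 and 7.44 in Control and at 1.56, 1.42 and 0.501 in GOF libraries. The groups did not overlap, and GOF replicate 2 stood lowest (log2 fold change -2.16, standard error 0.51, adjusted p = 0.0222). The call was lost without Control replicate 2 or GOF replicate 1, with an adjusted p of up to 0.0647. Oas1a was at 3.01, 0.327 and 0.528 in Control and at 0.638, 0.989 and 0.435 in GOF libraries. Only Control replicate 0 was high, and without it the log2 fold change of Oas1a turned from -0.93 to 0.65. Oas3 (-0.91 to 0.04) and Oasl1 (-0.61 to 0.07) likewise changed sign without that library. Oas2 and Oas3 were low throughout, with as few as 7 and 8 fragments in a library, and neither passed (adjusted p = 0.132 and 0.349).

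The antiviral effectors held 4 called members among the 7 tested. Ifit1, which binds viral RNA that lacks a methylated cap, was at 31.0, 3.75 and 10.7 in Control and at 2.06, 2.26 and 2.10 in GOF libraries. The Control libraries spanned a factor of 8.28, whereas the GOF libraries lay within 1.10 of each other, below all of them (log2 fold change -2.82, standard error 0.68, adjusted p = 0.0246). Ifit3, a binding partner of Ifit1, was at 51.9, 10.7 and 17.6 in Control and at 5.85, 6.31 and 6.25 in GOF libraries. It showed the same order of libraries in Control and an even level in GOF (log2 fold change -2.14, standard error 0.53, adjusted p = 0.0266). Fragments of Ifit3 and its near-identical neighbour Ifit3b may have been split between them, and the log2 fold change of Ifit3b was -3.09 (adjusted p = 0.0131).

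Ifit2, which lies in the same cluster on chromosome 19 and promotes apoptosis, moved the other way. It was at 17.8, 11.8 and 13.7 in Control and at 24.9, 28.7 and 19.3 in GOF libraries. Every GOF library was above every Control library, by less than 2-fold in the fit (log2 fold change 0.80, standard error 0.24, adjusted p = 0.0499). Its adjusted p was 0.193 in the replicate block by animal and reached 0.166 when a library was left out. Its log2 fold change stayed between 0.60 and 0.998 in the latter fits.

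Mx2, a dynamin-like GTPase that blocks virus replication, was at 4.37, 0.788 and 2.35 in Control and at 0.498, 0.354 and 0.370 in GOF libraries. The groups did not overlap (log2 fold change -2.43, standard error 0.55, adjusted p = 0.0195). Mx2, Ifit1 and Ifit3 each lost the call whichever GOF library was left out, with an adjusted p of up to 0.0694, 0.0974 and 0.102. Mx1 was at 0.450, 0.0389 and 0.101 in Control and at 0.0279, 0.0422 and 0.0679 in GOF libraries, which stood for 4 to 47 fragments. Cmpk2, a mitochondrial nucleotide kinase next to Rsad2 on chromosome 12, was at 1.62, 0.285 and 0.607 in Control and at 0.183, 0.198 and 0.141 in GOF libraries. All 3 GOF libraries were lower, near the lowest Control library (log2 fold change -2.28, standard error 0.63, adjusted p = 0.0387), and of the fits that leave out a library Cmpk2 kept its call only in that without Control replicate 1. Rsad2 itself (viperin) was at 1.36, 0.169 and 0.775 in Control and at 0.315, 0.412 and 0.0467 in GOF libraries. Its groups overlapped (log2 fold change -1.22, adjusted p = 0.329). Bst2 (tetherin), which holds budding virus at the cell surface, was at 147, 46.5 and 54.0 in Control and at 33.2, 36.9 and 30.3 in GOF libraries. The groups stood apart without passing the adjusted p (log2 fold change -1.34, standard error 0.42, adjusted p = 0.0576), and Bst2 was called without Control replicate 1 and without Control replicate 2.

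In the ISG15 and ubiquitin system 2 of 6 members were called. Usp18, the protease that removes Isg15 from proteins and dampens signaling from Ifnar2, was at 24.8, 2.99 and 6.88 in Control and at 2.35, 2.37 and 2.09 in GOF libraries. Its Control libraries spanned a factor of 8.28 and its GOF libraries 1.13, with a narrow gap between the groups (log2 fold change -2.37, standard error 0.69, adjusted p = 0.0467). Without Control replicate 0 the log2 fold change was -1.13 (adjusted p = 0.0497), and the call was lost without Control replicate 2 and whichever GOF library was left out. Isg15, the ubiquitin-like protein that Usp18 acts on, was at 36.3, 6.11 and 18.7 in Control and at 9.41, 5.95 and 3.49 in GOF libraries. GOF replicate 0 lay above Control replicate 1, and the difference did not pass (log2 fold change -1.71, standard error 0.60, adjusted p = 0.0841).

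Dtx3l, an E3 ubiquitin ligase, was at 9.06, 4.72 and 6.86 in Control and at 3.12, 3.84 and 3.03 in GOF libraries. Parp9, its binding partner and neighbour on chromosome 16, was at 26.5, 11.6 and 16.9 in Control and at 7.88, 8.97 and 7.27 in GOF libraries. Neither gene overlapped between groups, and the log2 fold changes were close, at -1.05 for Dtx3l (standard error 0.25, adjusted p = 0.024) and -1.13 for Parp9 (standard error 0.29, adjusted p = 0.0299). Both stand near the threshold of 2-fold and lost their calls without Control replicate 0, Control replicate 2, GOF replicate 0 or GOF replicate 2, and Parp9 also without GOF replicate 1. Exons of Dtx3l and Parp9 overlap on opposite strands, so fragments could be shared if strand was not used in the counting. Of the ligases Herc6, Trim25 and Trim30a none passed, at log2 fold changes of -0.52, -0.51 and -0.58. Parp12 and Parp14, which like Parp9 belong to the ADP-ribosyltransferase family, did not reach a call. Parp12 was at 17.6, 9.98 and 13.2 in Control and at 6.93, 8.11 and 6.32 in GOF libraries. It was lower in every GOF library (log2 fold change -0.92, standard error 0.24, adjusted p = 0.0305), and Parp14 differed by -1.03 on the log2 scale (adjusted p = 0.059).

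The interferon-inducible GTPases act on the membranes around intracellular microbes, and 3 of 6 were called. Gbp3, a guanylate-binding protein, was at 13.5, 3.37 and 8.14 in Control and at 1.58, 1.28 and 1.35 in GOF libraries. The lowest Control library was above the highest GOF library by more than 2-fold, and the fitted level was 5.99-fold lower (log2 fold change -2.58, standard error 0.45, adjusted p = 0.00741). Gbp7 was at 3.86, 1.66 and 2.62 in Control and at 1.29, 1.30 and 0.922 in GOF libraries. Its groups were separate by a smaller distance (log2 fold change -1.20, standard error 0.32, adjusted p = 0.036), and of the fits that leave out a library it was called only in that without Control replicate 1. Iigp1, an immunity-related GTPase, was at 12.9, 1.77 and 3.97 in Control and at 0.675, 0.770 and 0.244 in GOF libraries. It had the largest fold difference among the called members, 10.6-fold, with the widest standard error of them (log2 fold change -3.40, standard error 0.79, adjusted p = 0.0217), and it lost the call whichever GOF library was left out. The other immunity-related GTPases among the members, Igtp and Irgm1, were not called. Igtp was 2.75-fold lower (log2 fold change -1.46, adjusted p = 0.0752), and it shares exonic sequence on the same strand with Irgm2, a gene outside the list that was called lower (log2 fold change -1.46, adjusted p = 0.0125). Irgm1 was at 74.8, 24.9 and 35.3 in Control and at 36.5, 36.4 and 45.9 in GOF libraries. Its GOF libraries lay inside the Control range (log2 fold change -0.17, standard error 0.36, adjusted p = 0.768), and its value was 0.40 without Control replicate 0. The value of Gbp2 was -0.79 on the same scale (adjusted p = 0.178).

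Of the other 8 interferon-induced genes, 4 were called and 2 more passed the adjusted p alone. Ifi44, a cytoplasmic protein with antiviral activity, was at 6.50, 1.18 and 2.82 in Control and at 0.443, 0.368 and 0.545 in GOF libraries. All GOF libraries were below the lowest Control library by more than 2-fold (log2 fold change -3.18, standard error 0.61, adjusted p = 0.0105). Rtp4, a chaperone of membrane receptors, was at 16.0, 2.71 and 8.63 in Control and at 1.69, 2.18 and 0.973 in GOF libraries. The groups did not overlap, and Control replicate 1 came near the GOF libraries (log2 fold change -2.48, standard error 0.61, adjusted p = 0.0263). Xaf1, which promotes apoptosis by antagonising Xiap, was at 33.9, 8.26 and 17.2 in Control and at 7.30, 4.97 and 7.26 in GOF libraries. Here too Control replicate 1 was the closest to GOF (log2 fold change -1.50, standard error 0.43, adjusted p = 0.0456). Sp100, a component of nuclear bodies, was at 6.28, 1.74 and 2.91 in Control and at 1.29, 0.939 and 1.02 in GOF libraries. Its GOF libraries were even and its Control libraries spread over a factor of 3.61 (log2 fold change -1.86, standard error 0.46, adjusted p = 0.0259). Rtp4 and Xaf1 lost their calls in every fit that left out a library other than Control replicate 1, and Sp100 lost its call whichever GOF library was left out. Their adjusted p then rose to as much as 0.0971, 0.136 and 0.0878.

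Samd9l, an antiviral factor that restricts translation, was at 19.5, 9.01 and 12.1 in Control and at 6.79, 6.92 and 6.86 in GOF libraries. The 3 GOF libraries were nearly equal and lower (log2 fold change -0.95, standard error 0.28, adjusted p = 0.0454). Lgals3bp, a secreted glycoprotein, was at 49.1, 53.5 and 82.8 in Control and at 46.7, 37.1 and 30.8 in GOF libraries. It differed from most members in that Control replicate 2, not replicate 0, was the highest library (log2 fold change -0.79, standard error 0.21, adjusted p = 0.0334). Ifi27, the most abundant member, was at 317, 220 and 238 in Control and at 155, 163 and 197 in GOF libraries. Its groups did not overlap and it missed the threshold (log2 fold change -0.62, standard error 0.19, adjusted p = 0.0531). That of Ifi35 was -0.58 (adjusted p = 0.299).

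The members varied together from library to library, above all in Control. On the scale of the log2 ratio of FPKM to the Control mean, the median over the 48 tested members was 0.74 in Control replicate 0, -0.64 in Control replicate 1 and 0.00 in Control replicate 2. It was -0.82, -0.80 and -1.23 in GOF replicates 0, 1 and 2. Over all tested genes these medians lay between -0.03 and 0.03. Control replicate 0 was thus the highest of all 6 libraries for 41 of the 48 members, and Control replicate 1 was the lowest Control library for 44. GOF replicate 2 was the lowest of all libraries for 26 members. The ratio of the highest to the lowest library inside Control had a median of 2.89 over the members and 1.37 over all tested genes. Inside GOF it was 1.41 and 1.34, and 40 of 48 members spread more in Control than in GOF. Inside each group the libraries are cultures of separate animals, so that there differences between animals, infections and cultures cannot be told apart. The animal of Control replicate 0, with a median of 0.74, also gave GOF replicate 2, with -1.23.

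**Figure D3:**
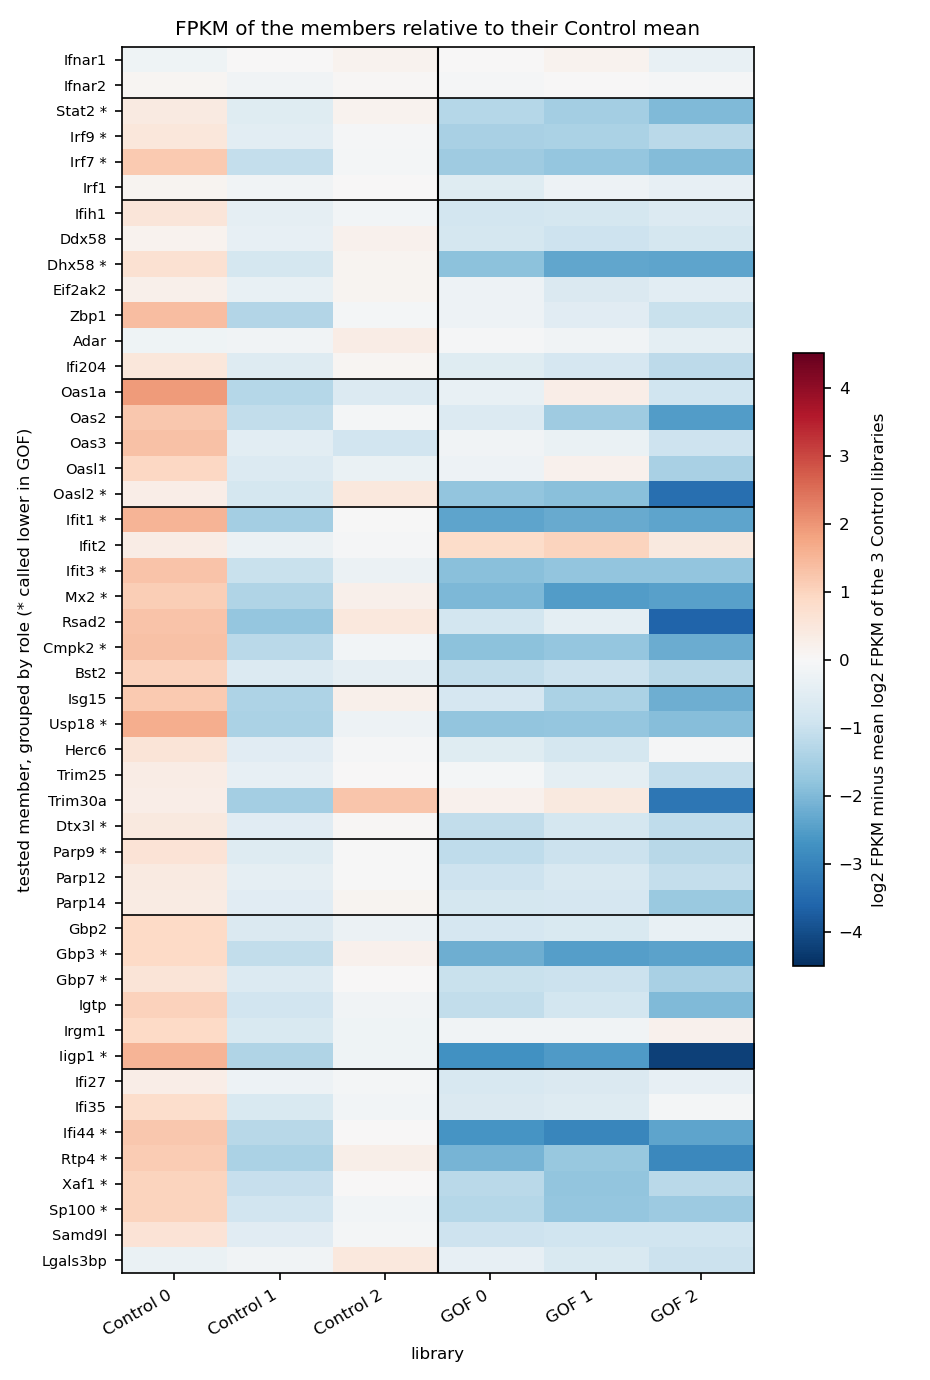
Log2 FPKM minus the mean log2 FPKM of the 3 Control libraries (color) for the 48 tested members (rows, grouped by role, an asterisk marks those called lower) in the 6 libraries (columns). Control replicate 0 is red in most rows and Control replicate 1 blue, and the 3 GOF libraries are blue in most rows, with Ifit2 as the clearest exception.

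Every GOF library was below every Control library for 28 of the 48 tested members, beside 19.2% of all tested genes, and above for 1 member, beside 20.3% of all tested genes. For the remaining 19 members the groups overlapped. The exact two-sided permutation test on FPKM, which with 3 against 3 libraries cannot go below p = 0.1, gave that value for 29 members.

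Within the 2 animals with a library in either group, most members had a lower FPKM in GOF. These ratios reuse libraries of the main comparison and are no separate evidence. For the 28 members with every GOF library below every Control library, a lower value in both animals was fixed in advance. In the animal that gave Control replicate 0 and GOF replicate 2, the FPKM was lower in GOF for 47 of 48 members, with a median ratio of GOF to Control of 0.212. In the animal that gave Control replicate 2 and GOF replicate 0 it was lower for 43 members, with a median ratio of 0.517. Over all tested genes the medians were 1.03 and 0.985. Members lower in both animals numbered 43, beside 35.9% of all tested genes, and those with a ratio under 0.5 in both numbered 21, beside 5.03%. Ifit2 was higher in GOF in both animals, at ratios of 1.08 and 1.82. Oas1a, Oas3, Oasl1 and Irgm1 were lower in the first animal and higher in the second, with ratios in the second of 1.21, 1.62, 1.05 and 1.03. With 1 library of each group per animal these ratios have no replicate error of their own.

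**Figure D4:**
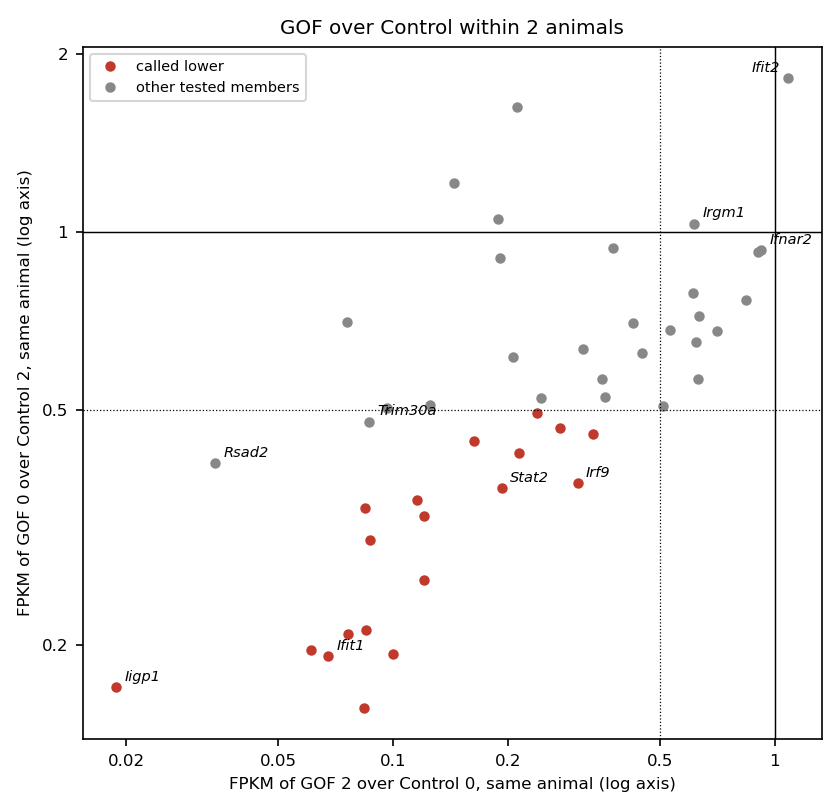
Ratio of FPKM in GOF to Control for each tested member in 2 animals, GOF replicate 2 over Control replicate 0 (horizontal, log axis) and GOF replicate 0 over Control replicate 2 (vertical, log axis). Solid lines mark equal levels and dotted lines a ratio of 0.5, and all 19 called members (red) lie below 0.5 on both axes. They were called with these same libraries, so their position is no separate evidence.

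Among the 45 other genes of the pathway, which are not members, 34 were tested, with a median log2 fold change of -0.03. Tlr3 was called lower and Tnfaip3 higher. Tlr3, the endosomal sensor of double-stranded RNA, was at 1.85, 1.51 and 1.57 in Control and at 0.884, 0.720 and 0.779 in GOF libraries. Its Control libraries were even, unlike those of most members, and all lay above GOF (log2 fold change -1.04, standard error 0.19, adjusted p = 0.00839). Tlr3 stands near the threshold of 2-fold. It was called in 4 of the 6 fits that leave out a library, and its log2 fold change was -0.94 without Control replicate 0. Tnfaip3 (A20), an inhibitor of NF-κB signaling, was at 0.932, 0.595 and 0.767 in Control and at 3.18, 2.02 and 3.83 in GOF libraries, higher in each GOF library (log2 fold change 1.87, standard error 0.23, adjusted p = 0.00196). Jak2, a kinase of the interferon gamma receptor, was higher by the adjusted p alone (log2 fold change 0.93, adjusted p = 0.00102), and Tlr4 lower (-0.63, adjusted p = 0.0071). The receptor kinases Jak1 (-0.21, adjusted p = 0.212) and Tyk2 (-0.09, adjusted p = 0.661), and Mavs (0.27, adjusted p = 0.256), Tbk1 (-0.01, adjusted p = 0.947) and Irf3 (-0.50, adjusted p = 0.11) did not pass. All 9 interferon genes of the list, Ifnb1 among them, were listed at 0 in every library.

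A further 69 interferon-stimulated genes outside the list were looked up, of which 57 were tested. Of these 20 (35.1%) were called lower and none higher, beside 5.64% and 6.69% of all tested genes. The median log2 fold change of the 57 was -0.86. At an unadjusted p under 0.05, 31 were lower and 0 higher. With no share of all tested genes taken at that p, these counts cannot be read against a background. The 8 with the smallest adjusted p were Slfn5 (log2 fold change -3.97), Ifitm1 (-3.04), Parp10 (-1.54), Gbp11, Ifi27l2a (-3.76), Plscr1 (-1.04), Mndal (-2.02) and Gbp9 (-2.09), with adjusted p between 0.00183 and 0.00986. Gbp11 held 12, 23 and 11 fragments in Control and 1, 0 and 0 in GOF libraries, too few for a fold change. Ifitm1 was low as well, with 19, 26 and 30 fragments in Control and 2, 4 and 3 in GOF libraries. Its log2 fold change ran to -0.76 in the alternatives that keep all libraries. Ifi27l2a held 18, 8 and 10 fragments in GOF libraries. Slfn5 was at 19.7, 20.8 and 21.9 in Control and at 1.44, 2.11 and 0.440 in GOF libraries. Its Control libraries were even, so that it did not follow the order of libraries seen in most members. The count of called genes in this list fell to 10 without GOF replicate 0, a fit that called 1311 of 15799 tested genes in either direction.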

How the data were processed

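RNA-seq libraries of 3 Control and 3 GOF cultures of dermal fibroblasts were analysed. The authors prepared stranded libraries, and the submitters' processing notes name TopHat, Cuffdiff and mm10. The estimated counts deposited by the authors are Cuffdiff's unscaled fragments per gene and library. The FPKM values deposited by the authors were scaled by transcript length and between libraries. Whether counting used the strand is not given in the sources used here, and 19 members share exonic sequence with another gene, 8 of them on the same strand (among them Irf9 with Rnf31), so their values are uncertain to that extent. A further 3 columns of per-library values and the lncRNA table were not used, and 32 genes with a failed estimate, none of them a member, were left out.

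Identifiers were matched to GENCODE M21 (97.9% of the table), whose coordinates on GRCm38, the assembly named mm10, are given. Estimated counts (4.95% not whole) were rounded and tested in R 4.3.3 with edgeR 4.0.16 (TMM, filterByExpr, quasi-likelihood test, Benjamini-Hochberg adjustment over 15462 genes), and a gene was called where the adjusted p was below 0.05 and the difference above 2-fold. The libraries held 35980831 to 42834467 fragments, and 45 of the 48 tested members had at least 10 fragments in every library. Alternatives were DESeq2 1.42.0, its size factors in edgeR, library totals, upper-quartile normalization, no filter, a minimum FPKM of 1 in 3 libraries, limma 3.58.1 on log2(FPKM + 1) and log2(FPKM + 0.1), a replicate block by label number, a replicate block by animal, also as a correlation between cultures, and each library left out. Leaving out both cultures of the animal of Control replicate 0 was added after the data were seen. Animals were read from the numbers in the sample titles. Deviations from the group means correlated at 0.408 and 0.46 between cultures of the same animal, and at -0.41, 0.0539 and -0.441 between cultures of the same label number, so the label numbers were not taken as pairs.

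The members and the lists of pathway genes, other interferon-stimulated genes and markers were chosen with earlier results of these data known. Values per library are given for every called member, every member past the adjusted p alone, both receptor subunits, the transcription factors and the RIG-I-like receptors, and in addition for Mx1, Oas1a, Rsad2, Bst2, Isg15, Irgm1 and Ifi27, which were chosen after their values were seen. Of each other list, up to 8 called genes with the smallest adjusted p are named, and the further genes named were chosen after their values were seen. Of the other interferon-stimulated genes, 4 were not found in the table under their symbol. Some genes of the pathway and marker lists are not reported here.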

Additional observations from a re-analysis of the deposited data

How the results depend on the processing

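The 19 called members kept a negative log2 fold change in all 17 alternatives other than the one added later, where they were tested. Their groups did not overlap in FPKM, so the sign could hardly turn. The count of called members was 8 with limma on log2(FPKM + 1), 11 with the replicate block by label number and 30 with the replicate block by animal, where every call was lower. With each library left out it ranged from 5 to 29. The other interferon-stimulated genes had 10 calls with limma on log2(FPKM + 1) and 10 to 22 with a library left out. Over all genes the calls numbered 877 (396 lower) with limma on log2(FPKM + 1), against 1906 (872 lower) in the main fit. They numbered 1421 (628 lower) with the replicate block by label number and 2008 (912 lower) with that by animal. With a library left out they numbered 1311 to 1961. limma on log2(FPKM + 0.1) called 15 members, all lower, beside 755 of 15462 tested genes. limma on log2(FPKM + 1) works on a scale that understates changes of low genes. The cause of these shifts, that scale included, was not tested.

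The median log2 fold change of the members, -1.08, was -0.55 with both cultures of the animal of Control replicate 0 and GOF replicate 2 left out, and -0.78 to -1.39 with a library left out. In the former fit 12 members were called lower and Ifit2 higher, beside 964 lower and 1172 higher among all 15706 tested genes. In that fit the log2 fold change turned positive for Ifnar1 (0.0156), Zbp1 (0.0115), Oas1a (0.91), Oas3 (0.18), Oasl1 (0.47) and Irgm1 (0.33), none of which was called. With a library left out, the log2 fold change ranged from -0.19 to 0.0920 for Ifnar1, -1.39 to 0.65 for Oas1a, -1.28 to 0.0447 for Oas3, -1.06 to 0.0657 for Oasl1, -1.11 to 0.18 for Trim30a and -0.47 to 0.40 for Irgm1. No member lost its call in the replicate block by animal, which rests on the 2 animals with a library in either group. At these depths the smallest counts, in Oas2, Oas3, Rsad2 and Mx1, limit what can be said of those genes.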
